A study of Homo sapiens with 6 samples.

Results

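The genes described here are 9 genes of the KEAP1 and NRF2 antioxidant pathway, chosen by name: NFE2L2, KEAP1, GCLC, GCLM, NQO1, HMOX1, TXNRD1, SRXN1 and SLC7A11. All 9 have a row among the 15376 rows of the deposited table of coding genes. RNA was sequenced from PC9ER, a line of human non-small cell lung cancer that depends on the receptor EGFR and resists its inhibitor gefitinib. Of the 6 libraries, 3 came from cells exposed to gefitinib at 1 µM in the final 6 h and 3 from control cells that had the vehicle DMSO. The growth medium held 10% fetal calf serum, and the 1 protocol given for every sample has 72 h of vehicle and overnight serum withdrawal. It does not say how the control cells were handled in the last 6 h or whether they too went without serum, so gefitinib and serum state cannot be told apart. Nothing in the labels ties the replicates to separate cultures, and the p-values below therefore measure the spread between libraries, which may be technical.

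NRF2, the protein product of NFE2L2, is a transcription factor that cells make and destroy continuously. KEAP1 holds it to a CUL3 ubiquitin ligase that marks it for the proteasome, and oxidants or electrophiles that modify cysteines of KEAP1 stop that step. NRF2 then accumulates, pairs with a small MAF protein and binds antioxidant response elements near genes for glutathione synthesis, thioredoxin recycling, quinone detoxification and heme breakdown. In lung cancers the pathway is known for mutations in KEAP1 and NFE2L2. Since NRF2 is controlled mainly as a protein, its own messenger RNA is a limited readout, and protein was not measured here.

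The libraries held between 13674237 and 38581498 reads in coding genes. Values are normalised read counts, that is, reads scaled by the authors to 18085800 coding reads per library. The gefitinib replicate 1 library was the shallowest and gefitinib replicate 3 the deepest. Control replicate 1 stood apart from the other control libraries on principal component 2 (9.59% of the variance), at 38.1 against -12.6 and -28.8. Gefitinib replicate 1 lay on the same side, at 23.3 against -8.86 and -11.1 in the other gefitinib libraries. The epithelial markers EPCAM, KRT8, KRT18, KRT19 and CDH1 were abundant in every library. Summed over the 8 epithelial markers in the table, values lay between 56680 and 59125 in gefitinib and between 66084 and 89805 in control libraries; KRT8, KRT18, KRT19 and CDH1 were lower, and EPCAM higher, in each gefitinib library than in any control library. The lung surfactant gene SFTPB reached at most 20.2 and SFTPC at most 0.705. Summed markers stayed at or below 36.1 for blood cells and 70.5 for fibroblasts. Those of endothelium lay between 147 and 176 in gefitinib and between 1180 and 1360 in control libraries, mostly from PECAM1. CDH5 reached at most 60.8 and VWF at most 11.6 in any library. All libraries came from the line PC9ER, so a marker sum here does not measure the share of a cell type. In such bulk libraries, fewer cells with a transcript and less of it per cell cannot be told apart. The part of these markers in the results below was not tested.

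The antioxidant genes did not all differ in 1 direction between gefitinib and control libraries. HMOX1, GCLM, TXNRD1 and SLC7A11 fell, GCLC and NQO1 rose, and NFE2L2, KEAP1 and SRXN1 did not pass the test. The largest difference was that of HMOX1, at -2.05 ± 0.19 (SE) on the log2(value + 1) scale. The smallest among the called genes was that of NQO1, at 0.33 ± 0.07. Here and below, the ± of a gene's log2 difference is its SE, and that of normalised reads is an SD. With limma and a threshold of 0.05 on the adjusted p, 6 of 9 members were called, against 51.1% of the 15229 genes tested. With edgeR on the recovered reads, these 6 of the 8 members tested were called in the same directions, against 61.3% of 12167 genes tested. SRXN1 was not tested there. The same 6 genes were the members whose groups did not overlap, a pattern that 58.0% of all tested genes showed. The share of members called is therefore not far from that of genes at large. The median log2 difference of the members was -0.41, and that of all tested genes 0.10. Of the 9 members, 8 had a mean above 20 normalised reads, and SRXN1 did not.

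**Figure D1:**
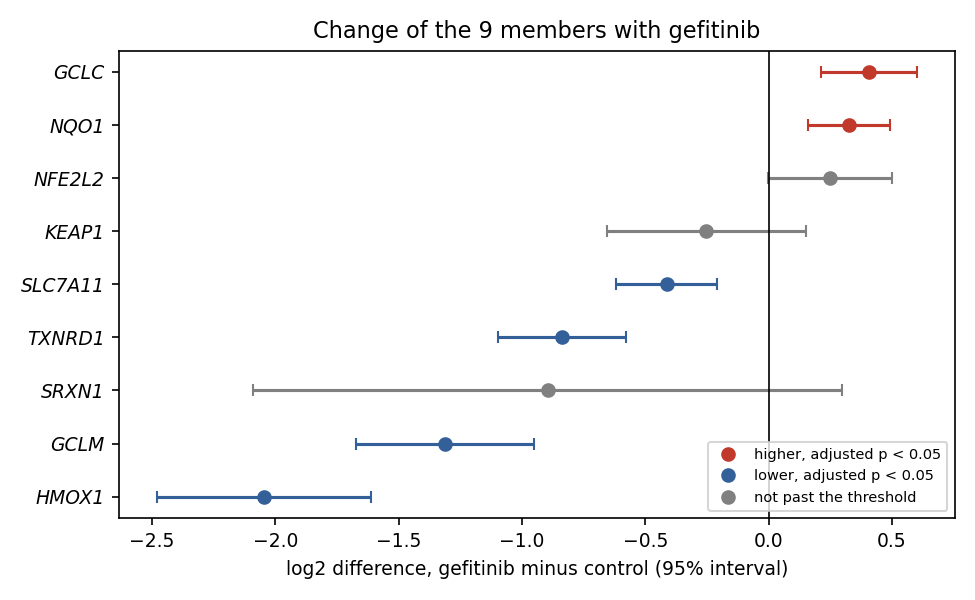
Log2 difference, gefitinib minus control, of the 9 members with its 95% interval (limma, 3 libraries a group); points are coloured by the call at an adjusted p of 0.05. HMOX1 and GCLM lie lowest, at -2.05 and -1.31, GCLC and NQO1 highest, at 0.41 and 0.33, and the wide interval is that of SRXN1, which had only 5 reads in all.

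NFE2L2 (chromosome 2, 177227595 to 177392697, GRCh38, minus strand) had 5485, 5099 and 4561 normalised reads in gefitinib replicates 1 to 3, against 4936, 3958 and 3887 in control replicates 1 to 3. The groups overlapped, since control replicate 1 lay above gefitinib replicate 3. The log2 difference was 0.25 ± 0.11 (SE), with a 95% interval from -0.00155 to 0.50 (limma adjusted p = 0.0903). Without control replicate 1 the difference was 0.36 and the limma adjusted p 0.00318. Of the exon bases of NFE2L2, 17.6% are also annotated to other genes of the same strand and 4.08% to genes of the opposite strand, and the sources used here do not state whether reads were counted by strand.

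KEAP1 (chromosome 19, 10486120 to 10503741, minus strand), the sensor and adaptor, had 1537, 1404 and 1264 normalised reads in gefitinib libraries and 1218, 1822 and 2081 in control libraries. The gefitinib libraries were close together, whereas control replicate 1 lay below all of them and control replicates 2 and 3 above. The log2 difference was -0.25 ± 0.18, with an interval from -0.66 to 0.15 (limma adjusted p = 0.272). Without control replicate 1 it was -0.48, at a limma adjusted p of 0.00201, and with the GC trend of each library removed it was -0.27, at 0.0259. Without gefitinib replicate 1 neither regulator passed, with limma adjusted p-values of 0.261 for NFE2L2 and 0.270 for KEAP1.

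Set against each other within a library, the 2 regulators gave 3.57, 3.63 and 3.61 reads of NFE2L2 per read of KEAP1 in gefitinib libraries and 4.05, 2.17 and 1.87 in control libraries. The gefitinib ratios were nearly equal and lay inside the range of the control ratios. The mean log2 ratio was 1.85 ± 0.01 with gefitinib and 1.35 ± 0.59 in control (SD, n = 3 each; exact permutation test, 2-sided, p = 0.4, adjusted over 2 ratios 0.4). Such a ratio does not depend on the scaling of a library, but its level depends on the lengths of the 2 transcripts.

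Glutathione synthesis starts with glutamate-cysteine ligase, an enzyme made of a catalytic subunit, encoded by GCLC, and a modifier subunit, encoded by GCLM, which makes the enzyme more efficient. The transcripts of the 2 subunits moved apart. GCLC (chromosome 6, 53497341 to 53616970, minus strand) had 5853, 5750 and 5565 normalised reads in gefitinib libraries, against 4832, 4117 and 4044 in control libraries. Every gefitinib library lay above every control library. The rise was 0.41 ± 0.09 on the log2 scale (limma adjusted p = 0.00350), or 32.1% between the means.

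GCLM (chromosome 1, 93885205 to 93909456, minus strand) had 5576, 4241 and 3604 normalised reads in gefitinib libraries, against 12809, 10603 and 9587 in control libraries. The highest gefitinib library was well below the lowest control library. The log2 difference was -1.31 ± 0.16 (limma adjusted p = 0.000134), and the gefitinib mean was 0.407 times the control mean.

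The ratio of GCLC to GCLM reads was 1.05, 1.36 and 1.54 in gefitinib libraries and 0.377, 0.388 and 0.422 in control libraries. GCLC reads thus outnumbered GCLM reads in each gefitinib library and were fewer in each control library, before any correction for length. The mean log2 ratio was 0.38 ± 0.28 with gefitinib and -1.34 ± 0.08 in control (SD, n = 3 each), a difference of 1.72. The exact permutation test gave p = 0.1, the smallest that 3 libraries against 3 allow (2-sided; adjusted over 2 ratios 0.2).

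**Figure D2:**
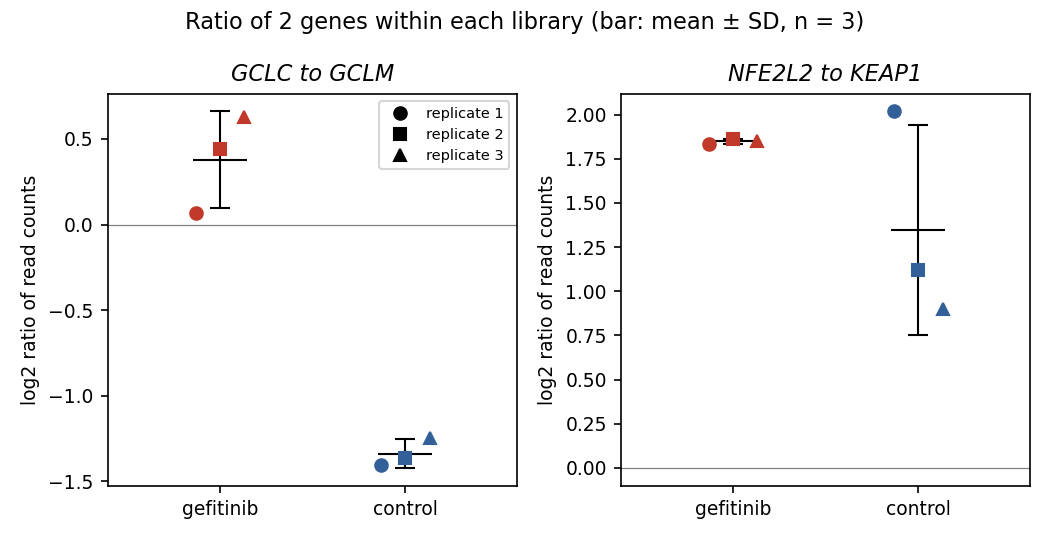
Log2 ratio of the read counts of 2 genes within each library, GCLC to GCLM on the left and NFE2L2 to KEAP1 on the right; symbols are replicates, bars the mean ± SD of 3 libraries. The GCLC to GCLM ratio lies between 0.07 and 0.63 with gefitinib and between -1.41 and -1.25 in control, while the NFE2L2 to KEAP1 ratio is near 1.85 in all gefitinib libraries and spread from 0.90 to 2.02 in control libraries.

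SLC7A11 (chromosome 4, 138164097 to 138242349, minus strand) encodes the transport subunit of the cystine and glutamate exchanger that brings in the cysteine for glutathione. It had 5448, 6153 and 6319 normalised reads in gefitinib libraries, against 8747, 7655 and 7476 in control libraries. The groups did not overlap, and the log2 difference was -0.41 ± 0.09 (limma adjusted p = 0.00434). An antisense gene covers 8.97% of its exon bases. SLC3A2, the chain that carries the exchanger to the membrane, rose to 5104 ± 596 in gefitinib libraries, against 3019 ± 119 in control libraries (SD, n = 3), so the 2 chains of the transporter moved in opposite directions. As background, SLC7A11 is a known target of the stress factor ATF4, whose own transcript was higher by 1.23 ± 0.10 (SE; limma adjusted p = 1.02e-05).

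TXNRD1 (chromosome 12, 104215779 to 104350305, plus strand), the cytosolic thioredoxin reductase that uses NADPH to recycle thioredoxin, was the most abundant member in control cells. It had 31134, 27054 and 22930 normalised reads in gefitinib libraries, against 51041, 47088 and 45733 in control libraries. Each gefitinib library was below each control library, and the spread was wider with gefitinib. The log2 difference was -0.84 ± 0.11 (limma adjusted p = 0.000270), and the gefitinib mean was 0.564 times the control mean.

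SRXN1 (chromosome 20, 646615 to 653370, minus strand), the sulfiredoxin that repairs overoxidised peroxiredoxins, was barely counted. The 3 gefitinib libraries held 0, 0 and 1 read and the 3 control libraries 0, 2 and 2. The ratio corrected for depth was 0.210 with an exact 95% interval from 0.00426 to 2.12, which covers counting error only and allows either direction. The limma adjusted p was 0.190, and 0.0349 without control replicate 1, which held no read. In GENCODE release 29, 85.0% of the exon bases of SRXN1 also belong to another protein-coding gene of the same strand, AL121758.1. The sources used here do not state how reads that match both genes were counted, and these few reads do not give the level of SRXN1.

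NQO1 (chromosome 16, 69706996 to 69726951, minus strand) encodes a quinone reductase that is widely used as a readout of NRF2. It had 17523, 18554 and 19237 normalised reads in gefitinib libraries, against 15168, 14647 and 14259 in control libraries. The groups did not overlap. The rise was 0.33 ± 0.07 on the log2 scale (limma adjusted p = 0.00487), or 25.5% between the means. An antisense gene covers 17.7% of its exon bases.

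HMOX1 (chromosome 22, 35380361 to 35394214, plus strand) encodes the inducible heme oxygenase, which splits heme into biliverdin, carbon monoxide and iron. It had 415, 323 and 243 normalised reads in gefitinib libraries, against 1112, 1441 and 1441 in control libraries. The highest gefitinib value lay far below the lowest control value. The gefitinib mean was 0.246 times the control mean, with a limma adjusted p of 2.94e-05. The size of the HMOX1 difference exceeded that of 94.7% of all tested genes, that of GCLM 84.4%, that of TXNRD1 68.1%, and those of SLC7A11, GCLC and NQO1 between 33.2% and 40.7%.

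**Figure D3:**
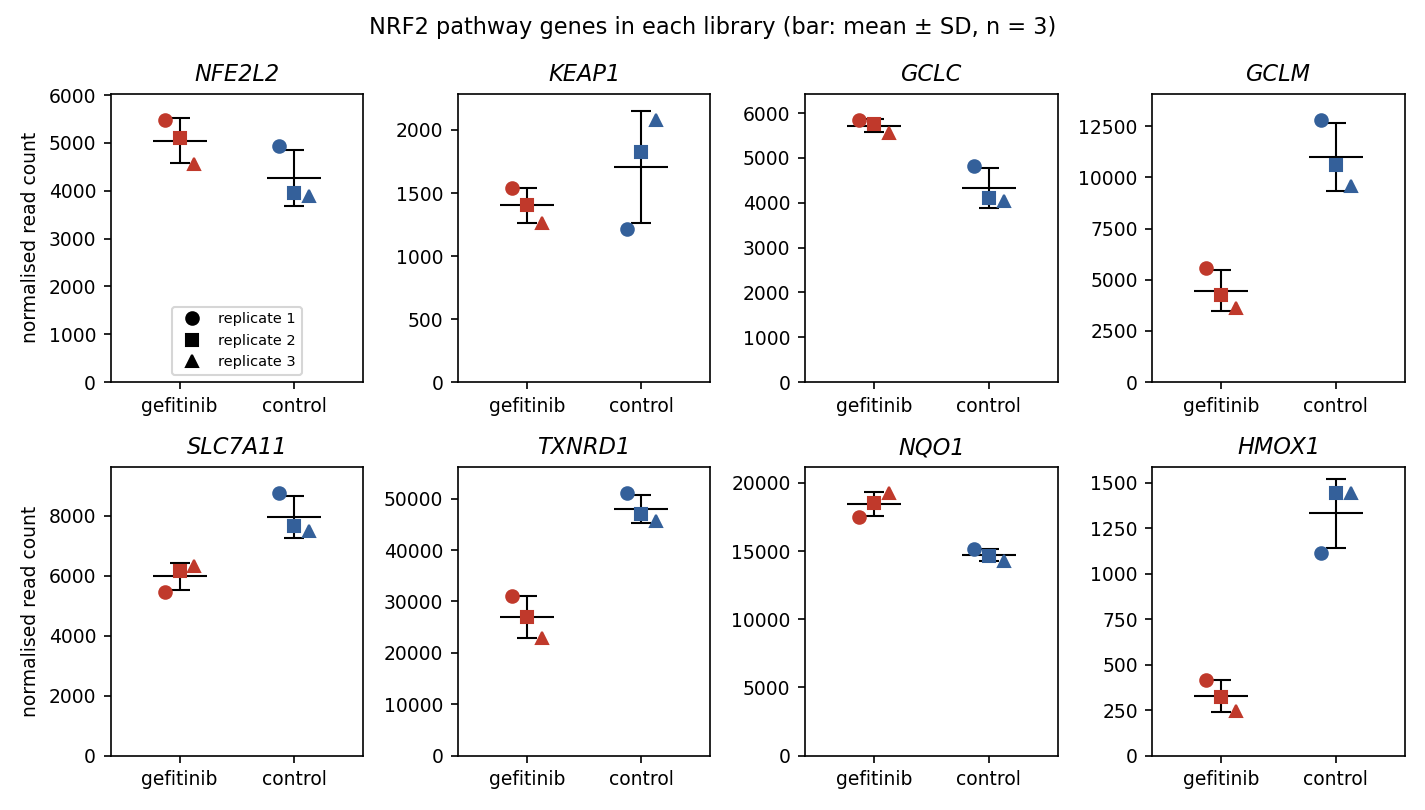
Normalised read counts of 8 members in each library, gefitinib on the left and control on the right of every panel, each panel with its own axis from 0; symbols are replicates, bars the mean ± SD. GCLM, SLC7A11, TXNRD1 and HMOX1 are lower and GCLC and NQO1 higher in all gefitinib libraries, while NFE2L2 and KEAP1 overlap through control replicate 1.

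The members also varied within the gefitinib group. NFE2L2, KEAP1, GCLC, GCLM, TXNRD1 and HMOX1 were highest in gefitinib replicate 1, and NQO1 and SLC7A11 were lowest there. That library was also the shallowest. In the control group, replicate 1 had the highest values of NFE2L2, GCLC, GCLM, NQO1, SLC7A11 and TXNRD1, and the lowest of KEAP1 and HMOX1.

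Levels between genes can be compared per length, as normalised reads per kilobase of annotated exon. By that measure NQO1 led in gefitinib libraries with 5666 ± 265 (SD, n = 3), ahead of TXNRD1 with 4031 ± 612. In control libraries TXNRD1 led with 7149 ± 411, ahead of NQO1 with 4515 ± 140. The order of these 2 members was thus exchanged by this measure only, which divides by all annotated exon bases of a gene. In normalised reads TXNRD1 led in both groups. Its means were 27040 with gefitinib and 47954 in control, against 18438 and 14691 for NQO1. In gefitinib libraries NFE2L2, at 844 ± 77.6, and GCLM, at 825 ± 186, came next and did not differ beyond their spread, nor did GCLC, at 662 ± 16.9, and SLC7A11, at 619 ± 48.0. KEAP1 followed at 373 ± 36.2 and HMOX1 at 136 ± 35.9. In control libraries GCLM stood at 2029 ± 304. SLC7A11, at 825 ± 71.3, and NFE2L2, at 713 ± 98.0, came next, and HMOX1, at 554 ± 79.1, GCLC, at 501 ± 50.4, and KEAP1, at 454 ± 118, were within their spread of each other.

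Promoter sequence from RefSeq (GRCh38.p14) was matched for 7 members with 10 windows, each from 250 bases before to 50 bases after an annotated start. The core of the antioxidant response element, TGACNNNGC, was searched on both strands, as was the AP-1 site TGANTCA. A match of the core was found in 4 of the 10 windows, belonging to GCLM, TXNRD1 and KEAP1, and in 13.3% of all 35116 windows of that length. No window of a member held TGANTCA, which 7.71% of all windows held, so no match overlapped an AP-1 match. The upstream 250 bases are shown 5′ to 3′ on the strand of the gene for the subunit pair that moved apart, GCLM and GCLC, and for the inner windows of TXNRD1 and KEAP1. Capitals mark matches of TGACNNNGC on either strand.
GCLM (chr1:93909431-93909680, minus strand): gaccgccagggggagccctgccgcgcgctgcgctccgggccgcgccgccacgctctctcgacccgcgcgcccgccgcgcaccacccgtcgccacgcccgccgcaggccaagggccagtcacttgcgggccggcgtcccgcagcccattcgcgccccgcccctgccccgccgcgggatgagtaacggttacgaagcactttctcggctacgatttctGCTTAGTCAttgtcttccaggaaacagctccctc
GCLC (chr6:53545102-53545351, minus strand): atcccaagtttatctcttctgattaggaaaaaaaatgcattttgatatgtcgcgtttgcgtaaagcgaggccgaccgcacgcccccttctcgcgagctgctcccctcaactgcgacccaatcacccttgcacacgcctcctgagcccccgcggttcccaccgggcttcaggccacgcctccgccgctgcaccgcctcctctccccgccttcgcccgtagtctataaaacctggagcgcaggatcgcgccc
TXNRD1 (chr12:104286782-104287031, plus strand): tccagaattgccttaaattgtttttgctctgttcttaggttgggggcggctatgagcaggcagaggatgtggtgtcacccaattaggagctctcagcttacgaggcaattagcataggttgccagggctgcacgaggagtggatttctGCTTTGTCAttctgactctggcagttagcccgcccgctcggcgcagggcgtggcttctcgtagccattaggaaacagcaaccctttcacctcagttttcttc
KEAP1 (chr19:10502772-10503021, minus strand): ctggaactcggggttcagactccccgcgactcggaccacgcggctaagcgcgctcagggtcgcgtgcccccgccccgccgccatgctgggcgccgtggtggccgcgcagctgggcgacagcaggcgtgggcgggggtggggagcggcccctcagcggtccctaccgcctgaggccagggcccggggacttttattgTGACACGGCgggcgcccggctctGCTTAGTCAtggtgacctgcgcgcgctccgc
The match in GCLM lies 34 to 26 bases before the start and reads TGACTAAGC on the opposite strand. The inner window of KEAP1 holds the same 9 bases, 31 to 23 bases before the start, and a further match, TGACACGGC, at 54 to 46. The match of the inner TXNRD1 window, TGACAAAGC, lies 102 to 94 bases before its start. GCLM and TXNRD1 fell, and KEAP1 did not pass the test (limma adjusted p = 0.272). HMOX1 and SLC7A11, which also fell, had no window to search. The part of these matches in the results was not tested. The windows of NFE2L2, GCLC, NQO1 and SRXN1 held no match, which says only that these letters are not in these windows.

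The list of NRF2 partners and turnover held 20 genes, among them relatives and competitors of NRF2 and proteins that bind KEAP1. Of these, 8 rose, 5 fell and 7 did not pass, with a median log2 difference of 0.12. Thus 65.0% were called, against 51.1% of all tested genes, of which 28.3% were called higher and 22.8% lower; without gefitinib replicate 2, 4 rose. BACH1, a repressor that competes with NRF2 at the same elements and is best known for holding down HMOX1, fell to 1504 ± 135 normalised reads in gefitinib libraries, against 2881 ± 502 in control libraries (SD, n = 3; limma adjusted p = 0.000250). The transcripts of HMOX1 and of this repressor were thus both lower with gefitinib. CUL3, the ligase scaffold that works with KEAP1, had 8489 ± 651 and 9687 ± 1301 (limma adjusted p = 0.181; removing the trend with GC content brought it to 0.000483). SQSTM1, an autophagy receptor that binds KEAP1, had 5847 ± 121 with gefitinib and 5293 ± 824 in control (limma adjusted p = 0.279), and MAFG, a small MAF partner, 875 ± 111 and 1054 ± 69.8 (limma adjusted p = 0.0692, over a range from 0.0261 to 0.231 for the alternatives, of which 9 of 17 called it lower).

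The second route of NRF2 destruction, independent of KEAP1, runs through the ligase adaptor BTRC. BTRC rose by 0.88 ± 0.10 on the log2 scale, and CREBBP, a coactivator of many factors including NRF2, by 1.14 ± 0.13. NFE2L3, a relative of NFE2L2, differed by -1.12 ± 0.11 and PGAM5, a mitochondrial phosphatase that binds KEAP1, by -1.10 ± 0.12, all with limma adjusted p-values of 0.000109 or lower. NFE2L1, the relative that drives proteasome genes, had 10804 ± 1397 and 13323 ± 1394; its call (limma adjusted p = 0.0484) was lost with a pseudocount of 5 (0.0561), without gefitinib replicate 2 or 3 (0.145 and 0.179) and without control replicate 2 or 3 (0.157 and 0.118).

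The list headed detoxification of quinones, aldehydes and carbonyls also holds a few genes that do not encode such enzymes, TRIM16 among them. Of its 19 genes, 13 fell, 2 rose and 4 did not pass, with a median log2 difference of -0.47. Of the list 68.4% fell and 10.5% rose, against 22.8% and 28.3% of all tested genes. With any 1 library left out, 1 gene of the list rose. AKR1B10 is an aldo-keto reductase often high where NRF2 is active. It had 5880 ± 277 normalised reads in gefitinib libraries, against 19145 ± 1788 in control libraries (SD, n = 3). The log2 difference was -1.70 ± 0.09 (SE, limma adjusted p = 1.57e-06). AKR1C1, of the same family, differed by -1.13 ± 0.10; AKR1C1, AKR1C2 and AKR1C3 are close copies of each other, so the split of reads among them is uncertain. TRIM16, of the TRIM ubiquitin ligase family and not a detoxifying enzyme, differed by -2.43 ± 0.18, from a lower level. EPHX1, the microsomal epoxide hydrolase, went against the list and rose to 3892 ± 517 in gefitinib libraries, against 1244 ± 177 in control libraries (limma adjusted p = 1.13e-05). NQO1, described above, likewise rose where most of this list fell.

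Among 25 tested genes of glutathione synthesis, use and export, 5 rose, 8 fell and 12 did not pass, with a median of -0.05; without control replicate 3, 8 rose. The share called, 52.0%, was near the 51.1% of all tested genes. The export pumps of glutathione conjugates ABCC1 and ABCC2 fell, with 900 ± 83.8 and 1405 ± 77.5 normalised reads in gefitinib libraries against 3031 ± 554 and 4167 ± 370 in control libraries (SD, n = 3). GSR, which returns oxidised glutathione to its reduced form, differed by -0.70 ± 0.10 (limma adjusted p = 0.000256). CHAC1, which degrades glutathione and is an ATF4 target, rose by 1.97 ± 0.25 from a low level, with 137 ± 24.2 against 34.3 ± 6.46. In these libraries, the fall of GCLM was accompanied by falls of GSR, ABCC1 and ABCC2, while GCLC and SLC3A2 rose.

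The thioredoxin and peroxiredoxin list held 14 genes: 5 rose, 2 fell (5 without control replicate 1) and 7 did not pass, with a median of -0.05. The 7 of 14 called were near the 51.1% of all tested genes. TXNIP, the inhibitor of thioredoxin, rose to 13486 ± 515 normalised reads in gefitinib libraries, against 9789 ± 1188 in control libraries (SD, n = 3; limma adjusted p = 0.00269). The sestrin genes SESN2 and SESN3 rose by 2.33 ± 0.18 and 5.83 ± 0.32, and PRDX4, the peroxiredoxin of the endoplasmic reticulum, differed by -0.48 ± 0.09. SESN3 had only 6, 2 and 4 reads in the control libraries, and its difference ran from 4.91 to 6.09 over the alternatives. The list of NADPH supply held 10 genes, not all of which encode enzymes that make NADPH themselves. Of these, 2 rose, 1 fell (4 without control replicate 1) and 7 did not pass, with a median of 0.02. Thus 30.0% were called, against 51.1% of all tested genes. MTHFD2 and IDH1 rose by 0.92 ± 0.10 and 0.57 ± 0.07, and ME1, the cytosolic malic enzyme, differed by -0.59 ± 0.09. NNT, the mitochondrial transhydrogenase, did not pass (limma adjusted p = 0.0679; 6 of 17 alternatives called it lower).

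Of 10 heme and iron genes, 5 rose, 2 fell and 3 did not pass, with a median of 0.17; without gefitinib replicate 1, 2 or 3 the number that rose was 3, 1 or 2. With all libraries 70.0% were called, against 51.1% of all tested genes. BLVRA, which reduces the biliverdin made by heme oxygenase, fell to 456 ± 7.65 normalised reads in gefitinib libraries, against 1152 ± 46.7 in control libraries (SD, n = 3; limma adjusted p = 5.19e-06). ABCB6, a porphyrin transporter gene, fell to 45.8 ± 15.1, against 183 ± 39.0 (limma adjusted p = 0.000305). HMOX2, the constitutive heme oxygenase, rose by 0.46 ± 0.13 (limma adjusted p = 0.0164, but 0.0553 without gefitinib replicate 1 and 0.0598 without gefitinib replicate 2), and SLC40A1, the iron exporter ferroportin, by 1.63 ± 0.21. HMOX1 and HMOX2 were therefore called in opposite directions.

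Of 5 genes that remove superoxide and hydrogen peroxide, CAT, encoding catalase, was higher by 0.55 ± 0.08 (SE; limma adjusted p = 0.000312) and SOD2, encoding the mitochondrial dismutase, differed by -0.49 ± 0.09. SOD1 rose by 0.26 ± 0.07 (limma adjusted p = 0.0137), and CCS and SOD3 did not pass; for CCS the limma adjusted p was 0.159. The call of SOD1 was held in 10 of 17 alternatives, with adjusted p-values from 0.00202 to 0.128. With gefitinib replicate 2 or control replicate 2 left out, 1 of the 5 genes rose. Over all 7 lists, 29 of 103 tested genes rose, 32 fell and 42 did not pass, with a median of -0.05; without gefitinib replicate 2, 17 rose. The share called was 59.2%, against 51.1% of all tested genes. The share that rose, 28.2%, was near that of all tested genes (28.3%), and the share that fell was 31.1%, against 22.8%.

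**Figure D4:**
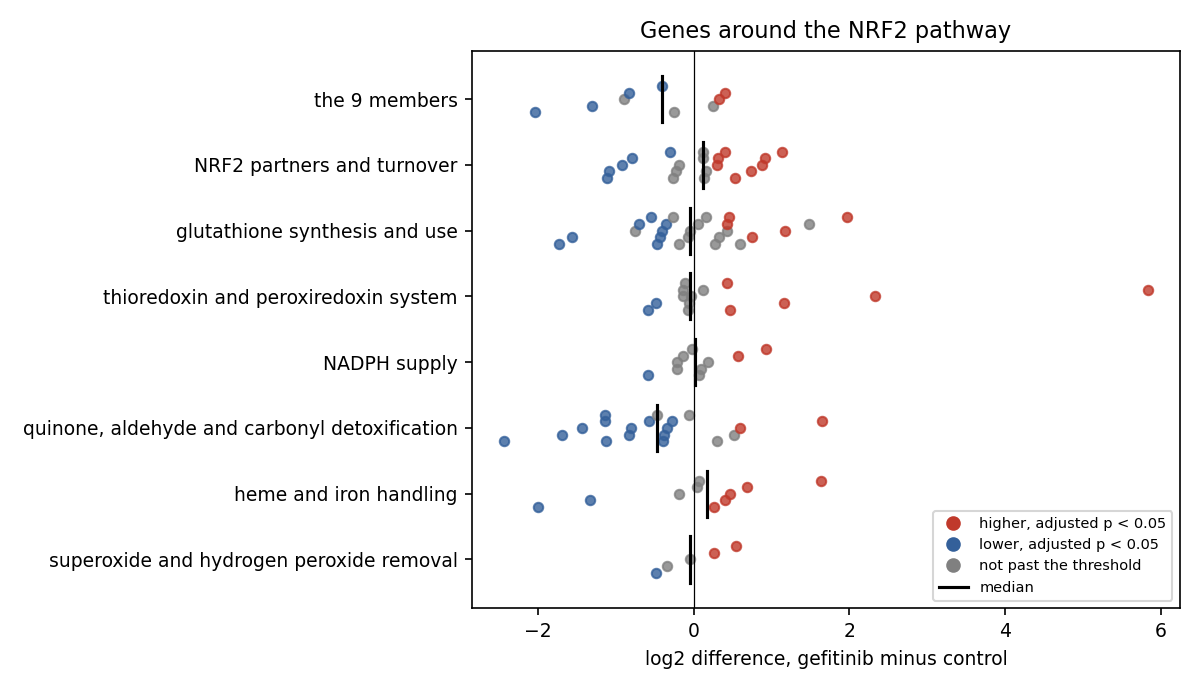
Log2 difference, gefitinib minus control, of each gene of the 9 members and of the 7 lists; colours give the call at a limma adjusted p of 0.05 and black bars the median. The detoxification list has most of its points left of 0 (median -0.47), and the other lists lie on both sides. The point farthest right is SESN3 at 5.83, which had few reads in control libraries.

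Several transcription factor genes that are known to act on antioxidant genes were measured in the same libraries. ATF3 rose to 794 ± 282 normalised reads in gefitinib libraries, against 76.2 ± 20.8 in control libraries (SD, n = 3). MYC fell, with 687 ± 89.9 and 3569 ± 317, and JUN, an AP-1 subunit, with 1281 ± 68.4 and 2017 ± 241. The limma adjusted p of these 3 genes was 0.000699 or lower.

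Over the 6 libraries, the genes whose log2 values followed NFE2L2 most closely, out of 10018 with a mean of 100 or more, were DCTN4, WDHD1 and TRIM37, with likeness given by a Pearson r of 0.995, 0.995 and 0.994. For KEAP1 they were EIF2B4, DGCR2 and KDM5C, at 0.998, 0.994 and 0.994. These are the highest of very many values over few libraries, and they describe these libraries only. None of these 6 genes passed the test between the groups, with limma adjusted p-values from 0.0789 to 0.506; without control replicate 1, all but EIF2B4 passed.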

How the data were processed

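The authors deposited a never-negative signal, gene read counts scaled to a common total per library; STAR, HTSeq and GRCh38 are named in the submitters' processing notes, without versions. Every nonzero value (100%) was a whole multiple of 1 read to within 0.01 read, so reads could be recovered. Another table's 6 per-sample columns match no label and are not used.

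The 15229 rows (of 15376) with any read were tested, 2-sided, by limma-trend (version 3.58.1 in R 4.3.3) after a log2(value + 1) transform, and p-values were adjusted by Benjamini-Hochberg across these genes. Fold changes on this scale understate those of low genes. Within a group, no 2 libraries agreed within sampling noise. The chi-square of their reads per degree of freedom lay between 5.36 and 63.8. Gene positions, exon lengths and GC content are from GENCODE release 29. The alternatives were pseudocounts of 0.5 and 5, 2 filters, TMM and DESeq2 size factors, edgeR 4.0.16, DESeq2 1.42.0 and limma-voom on recovered reads, a replicate block, leaving out each library and, added after the data were seen, removal of the GC trend (loess, span 0.3; GC known for 96.0% of rows).

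The members, lists and tests were chosen with earlier results of these data known. The text names all members, of each list the 4 genes with a mean of 20 or more and the smallest p, and NFE2L1, MAFG, BACH1, CUL3, SQSTM1, TXNIP, GSR, ATF4, ATF3, MYC and JUN. One other gene that the naming rule covers is not reported here; the list counts include it. The text also names the 3 genes most like NFE2L2 and the 3 most like KEAP1. AKR1C2, AKR1C3, SOD3 and PECAM1 were named after their values were seen; SFTPB, SFTPC and the epithelial genes are markers.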

Additional observations from a re-analysis of the deposited data

How the results depend on the processing

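GCLC and NQO1 were called higher, and GCLM, HMOX1, TXNRD1 and SLC7A11 lower, in all 17 alternatives run for each. Without control replicate 1, NFE2L2 passed at a log2 difference of 0.36, KEAP1 at -0.48 and SRXN1 at -1.44, the last on 5 reads in all. The difference of NFE2L2 over the libraries left out in turn ran from 0.19 to 0.36, that of KEAP1 from -0.48 to -0.092 and that of SRXN1 from -1.44 to -0.59. KEAP1 also passed with the GC trend removed, at -0.27 (limma adjusted p = 0.0259). The cause was not tested. Over the libraries left out, between 17 and 31 other genes of the pathway were called higher, against 29 with all libraries; the 17 came without gefitinib replicate 2. With TMM factors 25 of them were higher and 36 lower, and the share of all calls that were higher moved from 55.4% to 50.4%. Counts for single lists moved by over 1.5 times where few genes were called: 2 or 3 NADPH genes were lower with the other scalings and count tests or the GC trend removed, against 1. With TMM or DESeq2 factors 1 detoxification and 1 superoxide or peroxide gene was higher, against 2 each, and with the GC trend removed 8 partners were lower and 9 glutathione genes higher, against 5 each. SOD2 was not tested with the GC trend removed.

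Same-numbered libraries of the 2 groups deviated together only weakly (correlations over genes from 0.0444 to 0.127), and 5 of 6 libraries correlated best with their own number, a hint from the data and not the design. Same-numbered samples are known to share only a number, and correlations this weak cannot show whether they also share a batch. With the replicate number as a block, 4438 genes were higher and 3552 lower, against 4312 and 3473 without, and NFE2L2 passed at 0.25 (limma adjusted p = 0.0214), as did CUL3 (0.0466), MAFG (0.0331), DCTN4 (0.0274) and TRIM37 (0.0225), while NFE2L1 did not (0.0788). Under the block 8 glutathione genes were higher, against 5, and 1 detoxification gene, against 2. Of the members, SRXN1 had at most 2 reads in a library, and each of the others at least 314.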
